A study of Mus musculus with 36 samples.

Results

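The regions described here are H3K9me3 bins of mouse liver whose nearest gene start site, as the authors annotated it, belongs to a zinc finger gene with a symbol of the form Zfp plus a number, Zscan or Zkscan. The gene had to lie on an autosome other than chromosomes 2, 4, 7, 12 and 13. The rule uses only the gene symbol and the chromosome, and no measured value. It found 205 genes (195 Zfp, 6 Zkscan and 4 Zscan) among 22325 genes in all. Summed over the 6 deposited tables, these genes had 7096 of 786789 bin listings, and 179 of the 205 genes had a bin in every table. The number of bins ranged from 1011 of 102145 in the 8-week male table to 1449 of 159357 in the 3-week male table.

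H3K9me3, trimethylation of a lysine in the tail of histone H3, marks heterochromatin. It was profiled by ChIP-seq in liver of mouse offspring of both sexes. Their mothers had been given control chow or a Western-style diet that led to maternal obesity (MO). The 32 ChIP libraries fall into 8 groups of 4, one for each combination of maternal diet, sex and age (3 or 8 weeks). The mice were littermate controls from a Reg3g fl/fl colony, and the mice studied at 8 weeks had received chow since weaning in both diet groups. Whole liver was used, so cell types cannot be told apart. Each value used here is the authors' average CPM (reads of a bin scaled to library size) over the 8 libraries of a table's 2 groups. It gives no value per animal and no SD. The authors' own tests of each comparison were not used and no test across animals was run, so every difference below is a description of averages. There are 3 tables for each sex: control with MO at 3 weeks, control with MO at 8 weeks, and controls of both ages. The control libraries enter the last table as well as the first 2. Every 95% Wilson interval given for a share covers counting error only. Listings of 1 peak in several tables are not independent.

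C2H2 zinc finger proteins bind DNA through repeated fingers, each a short fold held by a zinc ion, and neighbouring fingers are joined by a conserved linker peptide. In the largest mouse family a KRAB box at the start of the protein binds the corepressor TRIM28 (KAP1), which recruits the methyltransferase SETDB1 and leads to H3K9me3, for which transposable elements are well-known targets. Zinc finger genes lie in clusters that arose by duplication, and the parts of these genes that encode the fingers are themselves known to carry H3K9me3 in many tissues. SCAN boxes, found in Zscan and Zkscan proteins, let the proteins pair with each other.

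A coding sequence was found for 198 of the 205 genes in the GENCODE annotation. The proteins had a median of 9.5 fingers by pattern (range, 0 to 32), and in 12 genes the pattern found none. A KRAB box pattern was found in 88 genes and a SCAN box pattern in 12 genes. Genes with the KRAB pattern had a median of 12 fingers and the other 110 genes a median of 6 fingers. A pattern misses divergent boxes, so the second set may contain KRAB genes. The genes were not spread evenly: chromosome 17 had 45 genes with 1295 listings, chromosome 8 had 26 genes with 1278 listings and chromosome 5 had 23 genes with 1102 listings. Grouped by a gap of at most 500 kb, 12 clusters of at least 4 genes held 88 genes. The longest cluster, at chr17:21008941-23611019, held 23 genes from Zfp160 to Zscan10. A second cluster on the same chromosome, at chr17:32765496-33631716, held 12 genes, and a cluster at chr6:47815536-48621548 held 11 genes.

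The sequence that encodes a finger linker was found in bins of the members far more often than in autosomal bins at large. The 15-base pattern searched on both strands was ACNGGNGANAANCCN, the codons of the linker peptide TGEKP, which also matches a few close peptides. It was found in 207 of 7096 member listings, 2.92% (95% Wilson interval, 2.55 to 3.33), and in 0.166% of all autosomal listings. Listings of other zinc finger genes held it in 5.09% of cases on chromosome 7, in 2.48% on chromosomes 2, 4 and 12 and in 2.30% on chromosome 13. The 4 stretches below were chosen to show what the marked finger exons look like on the coding strand (GRCm38). Each is 240 bases from an exon bin, with the linker codons in capitals.
Zfp879 (named for Zfp354c, the nearest start site), chr11:50832679-50832918, minus strand: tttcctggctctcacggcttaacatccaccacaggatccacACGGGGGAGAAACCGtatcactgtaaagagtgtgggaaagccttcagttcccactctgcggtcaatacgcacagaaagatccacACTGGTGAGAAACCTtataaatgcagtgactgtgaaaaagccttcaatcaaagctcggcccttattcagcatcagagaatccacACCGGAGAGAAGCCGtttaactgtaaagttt
Zfp113, chr5:138144779-138145018, minus strand: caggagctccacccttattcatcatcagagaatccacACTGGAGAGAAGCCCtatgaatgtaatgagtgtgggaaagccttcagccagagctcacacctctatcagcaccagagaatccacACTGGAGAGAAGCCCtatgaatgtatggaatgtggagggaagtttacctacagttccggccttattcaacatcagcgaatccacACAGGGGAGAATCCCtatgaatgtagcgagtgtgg
Zfp612, chr8:110089519-110089758, plus strand: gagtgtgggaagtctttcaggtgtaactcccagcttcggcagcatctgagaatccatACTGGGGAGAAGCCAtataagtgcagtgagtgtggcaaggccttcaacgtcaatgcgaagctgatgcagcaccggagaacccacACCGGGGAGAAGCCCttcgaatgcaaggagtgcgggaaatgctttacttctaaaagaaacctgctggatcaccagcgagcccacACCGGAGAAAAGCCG
Zfp267, chr3:36165699-36165938, plus strand: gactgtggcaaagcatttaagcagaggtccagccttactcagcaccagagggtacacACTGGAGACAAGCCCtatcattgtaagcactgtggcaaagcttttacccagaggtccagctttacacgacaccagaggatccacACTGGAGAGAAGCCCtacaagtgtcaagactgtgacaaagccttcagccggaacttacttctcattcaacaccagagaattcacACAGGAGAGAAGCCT
Each stretch holds 3 linkers, with 1 finger between each linker and the next. The whole bins held 6 linkers on the coding strand in Zfp879 and Zfp113 and 5 in Zfp612 and Zfp267. Of the 92 exon and intron listings with linker codons, 78 lay in the gene they are named for and 10 in another zinc finger gene.

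Linker codons were most frequent in exons, UTRs and the gene's end. They were in 12.5% of exon listings of the members, against 0.569% of exon listings on all autosomes, and in 19.1% of listings annotated as UTR, against 0.685%. Among member listings in the last decile of a gene's length, 47.5% held linker codons, against 1.16% for all genes. Promoter listings held them in 41 of 1438 cases (2.85%), against 0.166%, and first introns of members in 0 of 749. In all, 58 of the 205 genes had a bin named for them with linker codons in at least 1 table, and 14 genes had one in all 6 tables. The listings named for Zfp354c were among these 14. They lay in exons of Zfp354c and of its neighbour Zfp879 and ranged from 6.81 to 12.9 CPM. The linker bins of Zfp612 reached 20.8 CPM, in the table of control females, and were at 6.41 CPM at the lowest. Those of Zfp267 were at 3.41 and 4.67 CPM. Pooled over the tables, the median level was 14.1 CPM per kb in member listings with linker codons and 13.0 CPM per kb in those without. The order differed by table. Listings with linker codons were higher in females at 3 weeks (13.8 against 12.5), control females (16.1 against 15.1) and control males (12.2 against 11.1). They were lower in females at 8 weeks (14.7 against 15.2) and in males at 3 weeks (10.0 against 10.2) and 8 weeks (16.2 against 16.7).

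By location, the largest classes of member bins were close to those of autosomal bins in general. Distal intergenic sequence held 36.6% of the member listings and 38.1% of all autosomal listings, and promoters, within 3 kb of a start site, held 20.3% and 20.9%. Exons held 10.1% of member listings, against 9.04%. First introns held 10.6%, against 9.25%, and other introns 17.4%, against 19.3%. UTRs held 4.81% (interval, 4.33 to 5.33), against 3.26%. The intergenic bins lay a median of 29.4 kb from the start site of the gene they are named for, and 8.12% lay over 200 kb away, so a name there gives the nearest start site and no more. Among 2704 exon and intron listings, 1724 (63.8%) lay in a transcript of the named gene, 58 in another zinc finger gene and 922 (34.1%) in some other gene. Intergenic member bins were richer in repeat-masked sequence, with a median of 46.3% of bases masked against 28.0% for intergenic bins on all autosomes.

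The level of H3K9me3 differed little between the typical member bin and the typical autosomal bin. It was higher near genes with the KRAB pattern, in the typical bin as well as in the upper tail. The tables were normalised separately, so levels in different tables are set side by side without a common scale. The median of the members was 12.5 CPM per kb in females at 3 weeks, against 11.8 for all autosomal bins, and 15.2 against 14.0 at 8 weeks. In males it was 10.2 against 9.54 at 3 weeks and 16.7 against 15.3 at 8 weeks. The member median was also higher in the tables of control females (15.2 against 14.0) and control males (11.1 against 10.1). Thus the order was the same in every table, and the gap was 0.13 at most on the log2 scale. Near zinc finger genes of chromosome 13 the median was above that of the members in every table, with 17.0 in females and 18.5 in males at 8 weeks.

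Bins over 10 CPM, a cut set after the values had been seen, were more frequent among members in each table. At 3 weeks they made up 2.41% of member bins in females, against 0.349% of all autosomal bins, and 0.690% in males, against 0.0863%. At 8 weeks they made up 12.1% in females, against 4.59%, and 17.2% in males, against 8.24%. In the control tables the shares were 9.82% against 2.94% in females and 4.19% against 0.641% in males. Other zinc finger genes also exceeded the autosomal share in each table, and those of chromosome 13 exceeded the members. In females at 3 weeks the share was 4.00% on chromosome 13, 1.98% on chromosome 7 and 2.76% on chromosomes 2, 4 and 12. In males at 8 weeks these shares were 22.6%, 14.5% and 14.4%. Member genes in clusters carried more of the bins over 10 CPM: they were 29.2% of their bins in males at 8 weeks, against 12.5% for members outside clusters. The longest cluster on chromosome 17 had 650 listings, of which 20.8% exceeded 10 CPM, and a median of 17.0 CPM per kb. The cluster at chr8:69209018-69774911, with Zfp930 and 5 others, had 16.0% over 10 CPM. In contrast, the Zfp354 cluster at chr11:50811085-51072799 had 3.97% over 10 CPM, although 11.1% of its listings held linker codons.

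The KRAB pattern divided the members, a comparison added after the files had been seen. Of the listings of KRAB genes, 15.5% exceeded 10 CPM, against 2.25% for members without the pattern and 2.39% of all autosomal listings, and the medians were 15.4 and 12.2 CPM per kb. By table, the KRAB medians were 14.5 and 19.1 CPM per kb in females at 3 and 8 weeks, and 11.7 and 20.7 in males. In control females and males they were 18.4 and 13.3. Without the pattern the medians, in the same order, were 11.8, 13.9, 9.46, 15.3, 14.0 and 10.3. Those of all autosomal bins were 11.8, 14.0, 9.54, 15.3, 14.0 and 10.1. KRAB genes had the higher share over 10 CPM in each table, from 1.86% against 0.108% in males at 3 weeks to 33.5% against 6.66% in males at 8 weeks. Members without the pattern were below the autosomal share at 8 weeks, with 4.42% against 4.59% in females and 6.66% against 8.24% in males. In the other tables they were slightly above it, with 0.401% against 0.349% in females and 0.108% against 0.0863% in males at 3 weeks, and 3.50% against 2.94% and 0.699% against 0.641% in control females and males. Bins of the KRAB genes were intergenic more often than those of members without the pattern (45.4% against 32.4%). They also had more masked sequence (median, 46.3% against 10.5%). The sets differed in location and masking as well as in the box, and the part of each in the level was not tested. Finger number itself tracked the level weakly: across 137 genes with a bin of at least 400 bases in every table, Spearman's rho between fingers and level was 0.27, and it was 0.17 across 59 genes within the KRAB set. Genes are not independent replicates, and genes within a cluster share sequence.

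**Figure D1:**
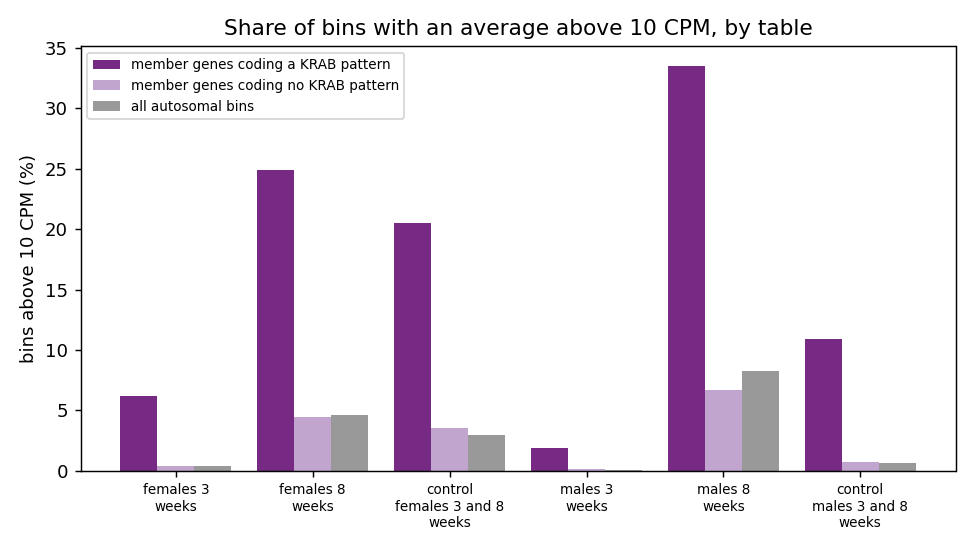
Share of bins with an average above 10 CPM, in percent, in each of the 6 tables, as bars for member genes with the KRAB pattern, member genes without it and all autosomal bins. The bar of the KRAB genes is the highest in each table and reaches 33.5% in males at 8 weeks, against 6.66% for members without the pattern and 8.24% for all autosomal bins.

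Named genes with the highest level were chosen by the mean over tables of the strongest promoter or gene body bin per kb. Zfp160, a KRAB gene with 18 fingers at the edge of the longest chromosome 17 cluster, came first with a mean of 50.2 CPM per kb. Its strongest bin was at 29.9 CPM per kb in females at 3 weeks, 47.6 in females at 8 weeks and 44.5 in control females. In males it was at 30.2 at 3 weeks, 97.3 at 8 weeks and 51.8 in controls. The highest male value belonged to the intron bin chr17:21035600-21036100, which was at 15.1 CPM at 3 weeks and 48.7 CPM at 8 weeks; all of its bases are masked as repeats. Female tables listed other bins close by, so the 2 sexes cannot be matched base for base there.

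The promoter of Zfp930, a KRAB gene with 12 fingers in the chromosome 8 cluster, was high in every table. Its bin chr8:69225591-69226089, or the near-identical bin of the male tables, was at 12.5 CPM in females at 3 weeks, 22.0 in females at 8 weeks and 17.3 in control females. In males it was at 10.1 CPM at 3 weeks, 26.0 at 8 weeks and 14.1 in controls. Only 8.62% of its bases are masked. Zfp942, a KRAB gene of the longest cluster, had an intron bin at chr17:21949868-21950368 at 16.4, 17.5 and 18.0 CPM in the 3 female tables, and its male counterpart was at 13.4, 18.0 and 12.9 CPM. For Zfp942 the levels thus varied less between tables than for Zfp160 and Zfp930.

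Zfp68, with 9 fingers and no KRAB pattern, had an intron bin at chr5:138607933-138608433 at 11.7 CPM in females at 3 weeks and 22.6 at 8 weeks, and at 9.52 and 24.3 CPM in males. The exon bin of Zfp316 at chr5:143253917-143254417 was at 20.5 CPM in females at 3 weeks and 31.5 CPM in control females. The 8-week tables listed no exon bin of Zfp316, and their strongest bins near Zfp316 were promoter bins at 5.98 CPM in females and 5.36 CPM in males. Each peak is represented by 1 bin per table, so a missing bin is not a missing mark. The strongest bin listed for Zfp81 lay in an intron of its neighbour Zfp101 in 5 of the 6 tables, described below. In females at 3 weeks it lay in the first intron of Zfp81, at chr17:33347046-33347328 and 30.4 CPM per kb. Zfp608 and Zfp521 ranked high only per kb: their strongest bins were mostly short, and their highest bins of at least 400 bases averaged 6.15 and 7.68 CPM.

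**Figure D2:**
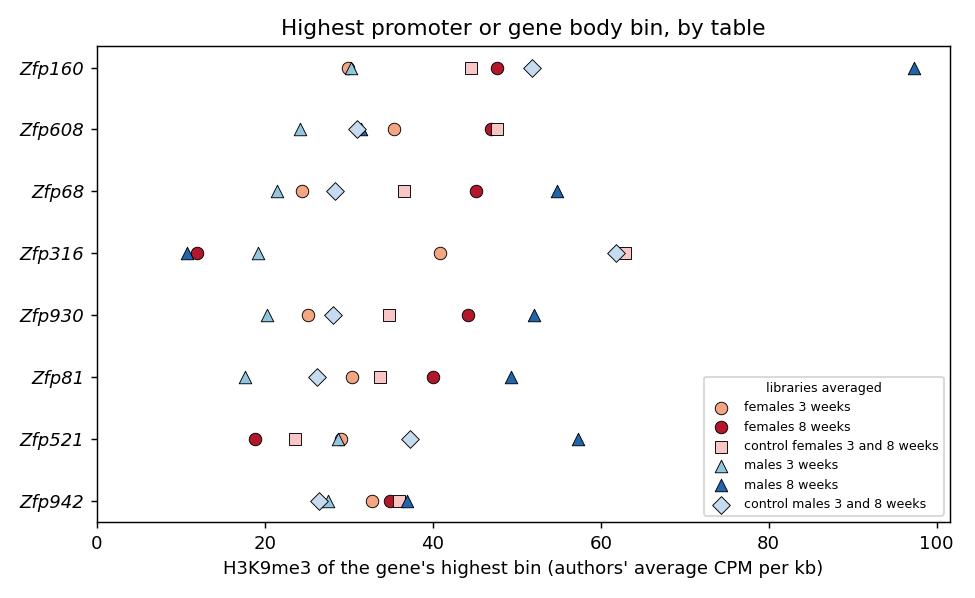
H3K9me3 of the strongest promoter or gene body bin, in the authors' average CPM per kb, for the 8 genes with the highest mean; each point is 1 of the 6 tables. The points of Zfp160 run from 29.9 to 97.3 CPM per kb, and those of Zfp942 lie closer together, from 26.4 to 36.9 CPM per kb; the points of Zfp608 and Zfp521 rest mostly on short bins.

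The genes with the most bins were a different set. Zfp423, which has a role in the commitment of fat cell precursors, led with 326 listings, of which 18.1% were intergenic, with a median of 10.9 CPM per kb. Zfp516, known for a role in brown fat, had 232, Zfp827 had 231 and Zfp804b had 211. Zfp960 (210 listings) and Zfp951 (176) were the KRAB genes among the 8, with medians of 16.6 and 15.9 CPM per kb and with 168 and 132 intergenic listings. Zfp326 had 179 listings and Zfp704 had 162. Of the 8 genes, 5 of the 6 genes without the KRAB pattern had medians under 12 CPM per kb.

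Comparing ages, member bins were more often higher at 8 weeks than autosomal bins at large. The difference is the log2 average CPM of the 8-week table minus that of the 3-week table of the same sex. These 2 tables share no library and each averages control and MO mice. It was centred on the median of all autosomal bins, 0.22 for females and 0.63 for males, and bins with the same coordinates in both tables were compared. In females, 35 of 675 member bins (5.19%) were higher at 8 weeks by over 1.5-fold, against a background of 1.82% of 71972 bins, and 17 (2.52%) were lower, against 1.23%. In males, 48 of 692 member bins (6.94%) were higher, against 3.26% of 68657 bins, and 13 (1.88%) were lower, against 1.65%. The median member moved little, by 0.05 in females and 0.03 in males. The share higher at 8 weeks was also above background near zinc finger genes of chromosome 13 (7.63% in females and 8.33% in males). It was 2.75% and 6.91% on chromosome 7, and 1.91% and 3.60% on chromosomes 2, 4 and 12.

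**Figure D3:**
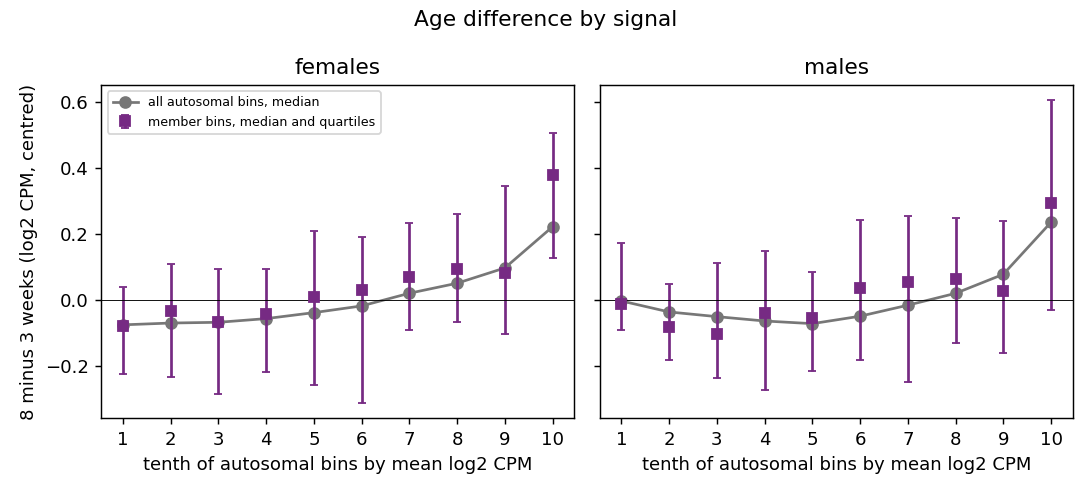
Age difference (8 minus 3 weeks, centred log2 CPM) by decile of autosomal bins by mean log2 CPM, for females and males; circles are the median of all autosomal bins, and squares with bars the median and quartiles of member bins. In the top decile the member medians were 0.38 (females) and 0.29 (males), and those of all autosomal bins 0.22 and 0.24.

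Strong bins were more often higher at 8 weeks than weak bins, near other genes as well. In the top decile by signal, 8.39% of all autosomal bins in females and 14.4% in males were higher by over 1.5-fold. Members were over-represented in that decile, with 17.0% of their bins in females and 20.2% in males. Within it, 22 of 115 member bins (19.1%) were higher in females and 36 of 140 (25.7%) in males. When the median of each decile was subtracted in place of 1 median, a setting chosen after seeing the data, 2.81% of member bins in females were higher, against 1.00% of all autosomal bins, and 4.77% in males, against 2.51%. In the same setting 2.07% of member bins in females were lower, against 1.14%, and 3.18% in males, against 1.53%. Members were thus past the fold more often in both directions. Signal is the mean of the same 2 values that give the difference, so the deciles are not independent of it.

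Genes with the KRAB pattern held most of the member bins that were higher at 8 weeks. Among their bins, 29 of 271 (10.7%; interval, 7.55 to 14.9) were higher in females and 36 of 281 (12.8%; 9.40 to 17.2) in males. Of the same bins, 8 (2.95%) in females and 9 (3.20%) in males were lower, against 1.23% and 1.65% of all autosomal bins. Among bins of genes without the pattern, 6 of 391 (1.53%; 0.705 to 3.31) were higher in females and 12 of 398 (3.02%; 1.73 to 5.20) in males, close to the 1.82% and 3.26% of all autosomal bins. Bins with linker codons were few in this comparison. In females 1 of 18 was higher, against 1.82% of all autosomal bins, and 4 (22.2%; 9.00 to 45.2) were lower, against 1.23%. In males 2 of 21 were higher, against 3.26%, and 1 was lower, against 1.65%.

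The 2 sexes, whose tables share no library, could be compared at 302 member places where bins of both sexes overlapped and both ages were listed. At 16 places (5.30%) the bin was higher by over 1.5-fold in both sexes, against 1.04% of 30101 autosomal places. With each decile of signal centred by itself, 6 of these 16 (1.99% of the places) were past the fold in both, against 0.329%, near Zfp873, Zfp945, Zfp946, Zfp958, Zfp959 and Zfp1006. At 1 place (0.331%) it was lower in both, against 0.0897%. The sign was the same in both sexes at 74.5% of the member places and at 65.0% of all autosomal places. Across the member places Spearman's rho between the sexes was 0.64, against 0.43 across all autosomal places. It was 0.56 and 0.34 when each decile of signal was centred by itself. These are descriptions across places, which share libraries within each sex. Of the 16 places, 15 belonged to KRAB genes, 15 of their 147 places (10.2%; interval, 6.28 to 16.2), and 1 of 151 (0.662%) to the other genes.

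**Figure D4:**
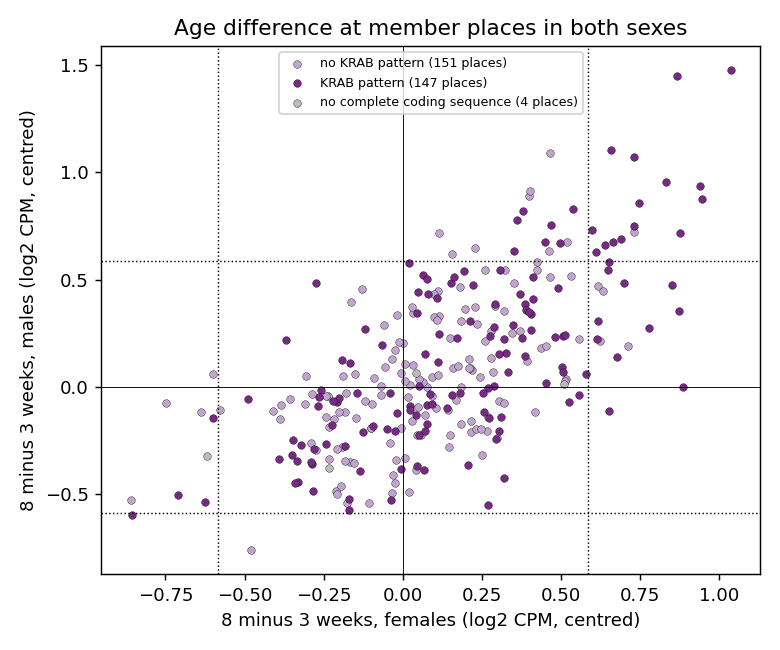
Age difference in males (vertical) against females (horizontal), 8 minus 3 weeks in centred log2 CPM, at the 302 member places listed in both sexes, coloured by the KRAB pattern, with dotted lines at 1.5-fold. Of the 16 places in the upper right corner past both lines, 15 have the pattern.

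The place with the largest difference was intergenic, 10.1 kb from the start site of Zfp1006 on chromosome 8. Its bin chr8:129211303-129211803 was at 11.3 CPM in females at 3 weeks and 27.0 at 8 weeks, and its male counterpart at 8.05 and 34.7 CPM. The centred log2 differences were 1.04 and 1.48. Near Zfp958, bin chr8:4651862-4652362 was at 8.04 and 17.0 CPM in females and at 5.60 and 23.7 CPM in males, with differences of 0.87 and 1.45. It lies in an exon of Gm45224, 26.0 kb from the Zfp958 start site, and 16.8% of its bases are masked. Both places were above their 3-week level by more in males than in females.

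The other 4 of the 6 leading places were on chromosomes 17 and 10. Near Zfp945, in the longest cluster, bin chr17:22765918-22766395 was at 4.65 and 10.4 CPM in females and 3.42 and 10.1 CPM in males. Near Zfp946, in the same cluster, bin chr17:22394280-22394780 was at 8.63 and 17.9 CPM in females and 7.96 and 23.9 CPM in males. The Zfp873 bin at chr10:82029733-82030233 was at 6.24 and 13.9 CPM in females and 5.95 and 16.9 CPM in males. The bin named for Zfp81, chr17:33362140-33362640 in an intron of Zfp101, was at 10.3 and 20.1 CPM in females and 8.81 and 24.7 CPM in males. The 6 genes named here all have the KRAB pattern, and their differences ran from 0.75 to 1.04 in females and from 0.86 to 1.48 in males.

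The other 10 places lay near Zfp938, Zfp960, Zfp942, Zfp947, Zfp945, Zfp959, Zfp951, Zfp68, Zfp958 and Zfp930. The promoter bin of Zfp930 and the intron bin of Zfp68 given above were among them, with differences of 0.60 and 0.73 in females and 0.73 and 0.72 in males. Zfp938 was already at 13.0 CPM in females and 13.2 CPM in males at 3 weeks, and reached 24.0 and 32.7 CPM. Over all 16 places the median went from 8.60 to 18.1 CPM in females and from 7.78 to 24.1 CPM in males. Of the 16, 8 lay on chromosome 17, 10 were intergenic and 14 were in the top decile of signal in both sexes. Their median masked share was 75.8%, against 29.8% for the other 286 member places, and 88.2% for the 313 autosomal places higher in both sexes.

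**Figure D5:**
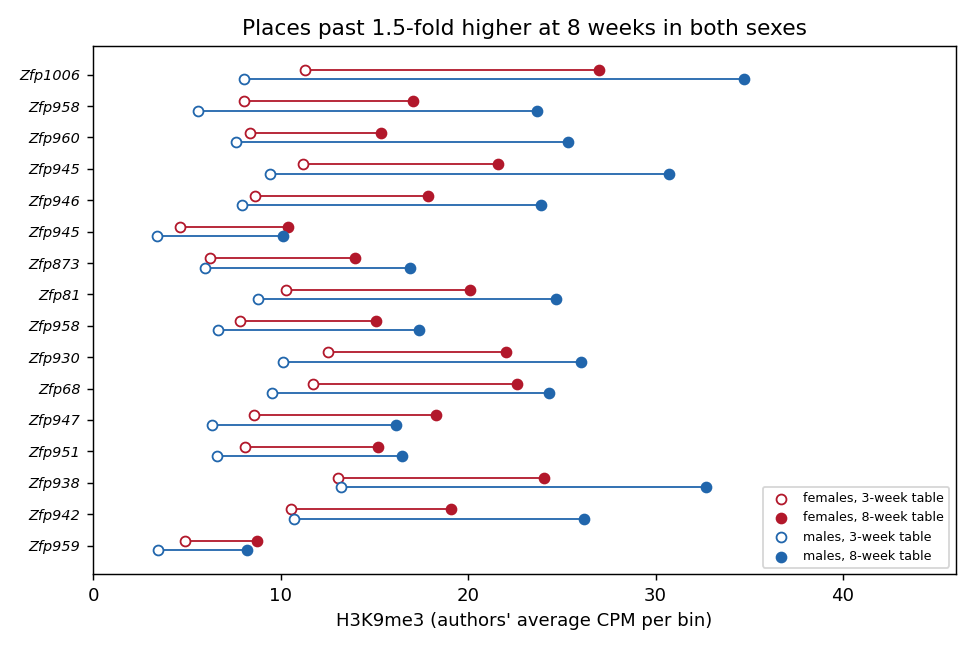
The 16 member places that were past 1.5-fold higher at 8 weeks in both sexes, with the average CPM of the bin in the 3-week table (open) and the 8-week table (filled) for females and males. The median went from 8.60 to 18.1 CPM in females and from 7.78 to 24.1 CPM in males.

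Some of these places shared sequence, a search made after they were known. Of 120 pairs of the 16 places, 7 (5.83%) shared at least one run of 20 bases. The share was 1.26% of pairs among the other 286 member places and 11.3% among the 313 autosomal places higher in both sexes. Of the pairs, 2 are shown, since they shared the longest runs; the run is in capitals, on the plus strand of GRCm38.
Zfp946, chr17:22394371-22394497: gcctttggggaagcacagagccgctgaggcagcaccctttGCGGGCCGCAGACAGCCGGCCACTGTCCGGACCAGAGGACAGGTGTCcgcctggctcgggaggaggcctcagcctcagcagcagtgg
Zfp945, chr17:22826266-22826392: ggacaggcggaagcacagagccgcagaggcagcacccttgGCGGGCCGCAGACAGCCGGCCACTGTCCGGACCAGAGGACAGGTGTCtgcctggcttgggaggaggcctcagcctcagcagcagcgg
Zfp81, chr17:33362296-33362428: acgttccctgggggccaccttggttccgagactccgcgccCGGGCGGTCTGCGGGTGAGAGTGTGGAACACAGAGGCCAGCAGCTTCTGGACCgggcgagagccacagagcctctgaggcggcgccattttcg
Zfp1006, chr8:129211576-129211708: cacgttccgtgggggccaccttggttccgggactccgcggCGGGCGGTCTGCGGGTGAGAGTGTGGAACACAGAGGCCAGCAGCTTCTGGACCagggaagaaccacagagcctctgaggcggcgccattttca
The run was 47 bases in the pair Zfp946 and Zfp945 and 53 bases in the pair Zfp81 and Zfp1006, whose places lie on chromosomes 17 and 8. Reads of such copies may be assigned to one or the other, and how the authors treated reads with several matches is not given in the sources used here. By the paper's methods a read was longer than either run, and whether reads of the copies could be told apart was not tested. The levels of these bins may be uncertain between copies.

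Lower bins were fewer. The bin at chr5:104853077-104853577 in the first intron of Zfp951 was at 8.03 CPM in females at 3 weeks and 5.16 at 8 weeks, and at 5.39 and 5.51 CPM in males, where the centred difference was -0.60. In females the difference was -0.86. Another intron bin of the same gene, chr5:104839118-104839581, was among the 16 higher places, with differences of 0.69 in each sex. The next largest differences of equal sign in both sexes were near Zfp945, Zfp35, Zfp119a, Zfp655 and Zfp599, where the smaller of the 2 sexes' differences was within 1.5-fold. Near Zfp35 the bin went from 9.04 to 5.80 CPM in females. It was at 7.12 and 7.65 CPM in males, with a centred difference of -0.53.

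Genes with a known role, from a preset list of 20, were covered by 19 members. Zfp809, which silences retroviruses through their primer binding site, had 30 listings, of which 0 were intergenic. Its 3 male bins compared between ages were at 5.89 and 6.23 CPM, 8.77 and 8.89 CPM, and 7.26 and 6.94 CPM at 3 and 8 weeks. Relative to the centring of 0.63 in males, these are differences of -0.55, -0.61 and -0.70. Its 3 female bins were at 0.27, -0.09 and -0.61 on the same centred scale. Zfp445 and Zfp57 maintain genomic imprints. The 3 male promoter bins of Zfp445 were at 9.30 and 11.1 CPM, 6.60 and 6.88 CPM, and 6.46 and 6.36 CPM, with centred differences of -0.38, -0.57 and -0.65. Its 1 female bin was at -0.17. Zfp57 differed by -0.07 in its female promoter bin and by 0.04 and 0.20 in males. Zfp932, a KRAB gene that represses a family of endogenous retroviruses, had 51 listings, 84.3% of them intergenic. Its intergenic bin chr5:109970179-109970630 was at 6.01 and 12.0 CPM in females, and its male counterpart at 5.09 and 9.53 CPM, with centred differences of 0.78 and 0.27. A second intergenic bin, chr5:109973895-109974302, was at 8.21 and 13.2 CPM in females (0.47), and its male counterpart at 6.87 and 18.0 CPM (0.76). Neither was past 1.5-fold in both sexes.

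Zfp42 (REX1) and Zscan10 are markers of pluripotent cells. The UTR bin of Zfp42 at chr8:43295558-43296058 was at 7.71 CPM in females at 3 weeks and 11.8 at 8 weeks, and its male counterpart was at 4.88 and 14.0 CPM, with centred differences of 0.40 and 0.89. Zscan10 bins differed by 0.12 to 0.27 in females and by -0.16 and 0.41 in males. Zfp638, which binds DNA of retroviruses that has not integrated, had 2 promoter bins with differences of 0.42 and 0.47 in females and 0.55 and 0.51 in males. The mRNA decay factor gene Zfp36l2 ranged from -0.32 to 0.00 in females and from -0.20 to -0.05 in males. The GC-box binding factors Zfp148 and Zfp281 and the developmental regulators Zfp423 and Zfp521 had medians from -0.10 to 0.38 over both sexes. Of their bins, 1 was past 1.5-fold, an intergenic bin of Zfp521 in females at chr18:14063691-14064101 (-0.64). The medians of Zfp207, Zfp407, Zfp516, Zfp703, Zfp961, Zkscan1 and Zkscan17 ran from -0.49 to 0.28, and 1 of their bins was past 1.5-fold, a promoter bin of Zfp516 in females at chr18:82909501-82910001 (0.62).

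Genes of the KRAB corepressor, a list of 12 that includes Trim28, Setdb1 and the HP1 genes Cbx1, Cbx3 and Cbx5, all had bins, and 8 had bins in all 6 tables. Between ages 0 of 21 bins were higher by over 1.5-fold in females and 0 of 15 in males, and 1 and 2 were lower. The shares of all autosomal bins were 1.82% and 3.26% higher and 1.23% and 1.65% lower. Over all bins of the list, intergenic ones included, the strongest was at 19.2 CPM near Atrx, which is X-linked. A bin over 10 CPM was found for 2 of the 11 autosomal genes (18.2%), against 25.7% of all autosomal genes with bins. Trim28 reached 6.53 CPM, and the 12 listings of Setdb1 were all intergenic.

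Diet was approximated on the log2 scale as the 3-week table plus the 8-week table minus 2 times the age table of controls, centred as before by subtracting medians of -0.26 in females and 0.39 in males. The control libraries enter all the tables of this sum. In females 3 of 583 member bins (0.515%) were past 1.5-fold in either direction, against 0.829% of 62457 autosomal bins. In males 7 of 616 (1.14%) were, against 1.12% of 60288 bins. The member shares were thus below or near the background. The female bins were near Zfp282 (-0.62, a promoter), Zfp960 (0.60) and Zfp326 (0.69). In males the promoter bins of Zfp947 and Zfp617 were at -0.73 and -0.67, and at -0.34 and -0.28 before centring, within 1.5-fold. Zfp758 (0.72), Zfp660 (0.65), Zfp397 (0.62), Zfp945 (0.59) and Zfp960 (0.59) were higher with MO. Before centring these values are larger by the 0.39 subtracted, so their passing the fold there was fixed in advance. The female bins near Zfp960 and Zfp326 were at 0.34 and 0.43 before centring. No bin was past the fold in both sexes, and the 2 bins of Zfp960 were at different places.

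Between the sexes the bins of a place can differ in length, so CPM per kb of each sex's own bin was compared, centred likewise. At 3 weeks 18 of the 302 member places (5.96%) were past 1.5-fold, 7 of them higher in males, against 7.79% of autosomal places. At 8 weeks 18 places were again past it, 10 of them higher in males, against 7.29%. Per kb the member shares were thus below the background at both ages. Per bin in place of per kb, 2 places (0.662%) were past it at 3 weeks, against 1.72%, and 10 (3.31%) at 8 weeks, against 2.25%. Among the 208 member places whose bins differed in length by at most 1.1 times, 1 (0.481%) was past the fold at 3 weeks, against 1.77%. It was a bin named for Zfp960 that lies in an exon of Gm6705, at 9.88 CPM per kb in females and 13.6 in males. At 8 weeks 8 of the 208 (3.85%) were past the fold, against 2.27%, and 7 of them were higher in males. That bin was among them, at 12.1 and 19.9 CPM per kb. The intergenic Zfp960 place that was higher at 8 weeks in both sexes was at 30.6 CPM per kb in females and 50.5 in males. The promoter bins of Zfp983 (12.0 and 21.1 CPM per kb) and Zfp157 (12.1 and 21.3) were also higher in males. The place higher in females was in the first intron of Zfp866, at 23.0 and 15.2 CPM per kb.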

How the data were processed

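Liver H3K9me3 ChIP-seq was read from the 6 comparison tables the authors deposited. According to its methods section, the authors had aligned reads to mm10/GRCm38, called broad peaks with MACS2, merged them separately by sex, cut long peaks into bins, counted reads and tested each comparison with edgeR. The only measurement used here is the deposited log2 CPM per bin, the authors' average over the 8 libraries of 2 groups. The authors' own comparison columns (log2 fold change, p-value and FDR per bin) were not used. No table had a column per sample, the total depth of each library was not analysed here, and the input libraries were not used.

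Bins were assigned to genes by the authors' annotation. The gene that holds an exon or intron bin was read from the gene ID in that annotation, or from the transcript's name where it gives none. CPM was divided by bin length in kb where levels are compared. Differences between tables were centred on the median of all autosomal bins, and a bin was called past 1.5-fold. Bins are at most 501 bases, 1 for each peak and table. Which bin of a peak was retained is not stated, so a gene's strongest bin can differ between tables. Named genes were the 8 highest by level, the 8 with most bins, the 6 with the largest difference in each direction in both sexes, a preset list of 20, and clusters of at least 4 genes. The members, lists and rule were chosen with earlier results of these data known. Sequences, masked shares and GC content were read from the GRCm38 genome, coding sequences from the GENCODE annotation, and fingers and boxes counted by pattern. The functions were tested on simulated data. Alternatives were a pseudocount, a minimum of 5 CPM, bins of at least 400 bases, no intergenic bins, 1 value per gene, no centring, a 2-fold threshold, an overlap of at least 250 bases and other definitions of promoter and linker. The software was Python 3.11.15, numpy 2.4.6, pandas 2.3.3, scipy 1.17.1 and pysam 0.24.0.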

Additional observations from a re-analysis of the deposited data

How the results depend on the processing

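No paired analysis was possible because the tables hold averages over libraries, and for the same reason leaving out a replicate was not possible. The depth of the libraries was not analysed here, and the lowest log2 CPM of a table ranged from 1.18 to 1.93. Of 119 alternative values, 44 moved past the Wilson interval of a share or by 0.1 or more on the log2 scale for levels and medians, and 75 did not. No level or median difference changed sign, and a share cannot. The set limit of 0.1 is about as large as the level differences themselves. With CPM per bin in place of CPM per kb these fell in all 6 tables: from 0.08 to 0.03 in females at 3 weeks, from 0.11 to 0.08 at 8 weeks and from 0.11 to 0.06 in control females, and from 0.09 to 0.05 in males at 3 weeks, from 0.13 to 0.08 at 8 weeks and from 0.13 to 0.07 in control males. With 1 value per gene that of males at 8 weeks was 0.17. The cause of the moves was not tested beyond what each setting removes.

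For age and diet, the share of all autosomal bins in the same setting is given in parentheses. With 1 CPM added, 3.70% (0.978%) of member bins in females were higher, and 1.04% (0.435%) in females and 0.723% (0.607%) in males were lower. Without intergenic bins 3.40% (1.64%) in females and 4.96% (2.95%) in males were higher, and 2.84% (1.56%) in males lower. With 1 value per gene 1.79% (0.700%) and 3.91% (1.31%) were higher, and 1.19% (0.388%) in females and 2.79% (0.606%) in males lower. With at least 5 CPM, 14.2% (5.68%) in males were higher, and 1.42% (1.79%) lower. Without centring, 17.2% (8.90%) in females and 59.0% (56.6%) in males were higher, 0.593% (0.0973%) and 0% (0.00146%) lower, and the medians were 0.26 and 0.66. At 2-fold 0.148% (0.0292%) and 1.59% (0.220%) were higher and 0.148% (0.00834%) and 0.145% (0.0189%) lower. Centring within deciles of signal, chosen after seeing the data, gave 2.81% (1.00%) and 4.77% (2.51%) higher, and 2.07% (1.14%) and 3.18% (1.53%) lower. In both sexes at once 1.99% (0.329%) of member places were then higher.

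The diet share was 0.172% (0.247%) in females and 0.325% (0.216%) in males with 1 CPM added, 7.03% (6.97%) and 24.8% (20.3%) without centring, and 0% (0%) and 0% (0.00332%) at 2-fold. It was 0% (0.303%) in females with 1 value per gene, and in males 0.413% (0.354%) with at least 5 CPM and 0.471% (1.03%) with bins of at least 400 bases. The sex share, with CPM per bin in place of CPM per kb, was 0.662% (1.72%) at 3 weeks and 3.31% (2.25%) at 8 weeks. With lengths within 1.1 times it was 0.481% (1.77%) at 3 weeks. Both settings were chosen after seeing the data.

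Bins of at least 400 bases were in promoters in 21.5% of cases, in exons in 11.3% and intergenic in 34.0%, and 3.81% held linker codons. With 1 bin per gene and table these shares were 30.4%, 12.4%, 28.6% and 6.95%. Promoters within 1 kb held 13.7%, and the codons of the longer peptide HTGEKPY were in 2.41%.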
